A study of Mus musculus with 18 samples.

Results

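Cohesin binding was examined at the genes of 10 transcription factors and coactivators that set up or maintain B cell identity, namely Ebf1, Bach2, Spib, Ikzf1, Ikzf3, Foxo1, Foxp1, Irf8, Pou2af1 and Bcl6. A binding site was counted for a gene when its centre lay in the gene body or within 20 kb of it on mouse genome assembly mm9. Of 18957 sites found in any list, 39 met this rule. Bach2 had 10 of them, Bcl6 7, Foxp1 6, Ikzf3 4, and Ebf1, Spib, Ikzf1 and Foxo1 had 3 each. No site was found for Irf8 or Pou2af1.

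The sites are chromatin immunoprecipitation (ChIP-seq) peaks of RAD21, the kleisin subunit that closes the cohesin ring. Splenic B cells came from wild-type C57BL/6J mice (C57BL/6 in the sample labels), aged 8 to 10 weeks, and each of the 3 replicates of a time point held the pooled cells of 12 mice. The cells were resting (0 h), or had been cultured with LPS at 50 µg/ml and IL-4 at 2 ng/ml for 48 h or 96 h, which induces the switch to IgG1. Cells positive for IgG1 were enriched at 96 h only, so that time in culture, this purification and any change in cell types cannot be told apart. The study followed B220 and IgG1 on the cell surface by flow cytometry, which was not analysed here. The paper also reports syndecan, a plasma cell marker, on part of the cells at the late time point. In its flow cytometry, part of the enriched fraction was not scored as positive. The peak lists hold no marker by which the purity of the cells could be checked.

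Cohesin holds DNA molecules together and forms chromatin loops. Many of its sites in mammalian chromatin coincide with those of CTCF, a zinc finger protein that binds a long, non-palindromic motif and halts cohesin there in an orientation-dependent way. The 10 genes encode proteins that act at different steps. EBF1, Ikaros (Ikzf1), Aiolos (Ikzf3), FOXO1 and FOXP1 act in B lineage development, and SPI-B is itself an Ets family factor. IRF8 and the coactivator OBF-1 (Pou2af1) cooperate with Ets family or Oct proteins on B cell genes. BACH2 and BCL6 are repressors that hold back plasma cell differentiation.

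The measurements are 12 lists of peaks that passed the authors' threshold, with a position and a score per peak. A replicate has a list of its own, and a pooled list was called on the combined reads of the replicates of 1 time point. The replicate lists held between 821 peaks (resting replicate 2) and 8579 peaks (96 h replicate 3), and the pooled lists 5690, 5579 and 12806 peaks at 0 h, 48 h and 96 h. A peak's score is given here as its percentile, the percentage of peaks in the same list that score the same or lower. Percentiles depend on the length of the list, since a longer list can hold more low-scoring peaks, and the 96 h lists were mostly the longest (2807 to 8579 peaks, against 821 to 3578 at 0 h and 1538 and 1563 in 48 h replicates 1 and 3). They are given to place a site within its list, and no difference between time points is read from them. Replicate 2 of the 48 h time point stood apart, as 4763 of its 5233 sites (91%) had no peak in any other replicate. Support is therefore counted over the other 8 replicates, and the values with that replicate are given where they bear on a site. Of the 39 sites, 5 were found only in that replicate, in the 48 h pooled list that contains its reads, or in both, which leaves 34 sites elsewhere. The read number behind a peak is not known, and cohesin may be bound where no peak passed the threshold.

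The sequences at the best supported sites, and at the sites that differed between all replicates of 2 time points, are shown first because they carry the positions on which the comparisons rest. A 20-base motif with the consensus GCCACTAGGGGGCGCCATAG, which contains the well-known core of the CTCF motif, had been learned from 479 RAD21 sites on chromosomes that carry none of the 10 genes. Capitals mark the motif match on the strand named, with 20 bases of mm9 sequence on either side. Each match was found by a search of both strands within 100 bp of the centre of the site, except that of Ikzf1, 15.8 kb downstream, which was found within 250 bp.
Ebf1, 6.25 kb upstream, chr11:44424523-44424582, plus strand: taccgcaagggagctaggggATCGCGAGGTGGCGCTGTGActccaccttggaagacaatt
Ebf1, 0.178 kb downstream, chr11:44821779-44821838, minus strand: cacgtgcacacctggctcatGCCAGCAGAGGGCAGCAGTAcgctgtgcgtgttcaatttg
Foxo1, 10.5 kb upstream, chr3:52061737-52061796, plus strand: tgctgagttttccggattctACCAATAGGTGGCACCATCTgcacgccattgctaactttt
Foxo1, 5.71 kb upstream, chr3:52066485-52066544, plus strand: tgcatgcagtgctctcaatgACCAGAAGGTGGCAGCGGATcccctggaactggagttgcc
Spib, 16.9 kb upstream, chr7:51804345-51804404, minus strand: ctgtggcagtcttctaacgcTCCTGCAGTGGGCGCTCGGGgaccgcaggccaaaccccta
Ikzf1, 15.8 kb downstream, chr11:11688570-11688629, minus strand: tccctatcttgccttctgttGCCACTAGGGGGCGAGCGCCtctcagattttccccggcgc
Bcl6, 2.49 kb upstream, chr16:23991388-23991447, plus strand: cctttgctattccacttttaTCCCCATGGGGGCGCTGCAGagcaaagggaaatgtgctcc
Bach2, intron 5, chr4:32659250-32659309, minus strand: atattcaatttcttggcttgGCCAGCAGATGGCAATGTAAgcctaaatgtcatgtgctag
Bach2, 0.709 kb downstream, chr4:32673746-32673805, plus strand: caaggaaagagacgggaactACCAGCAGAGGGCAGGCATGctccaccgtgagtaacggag
Spib, 4.08 kb downstream, chr7:51777254-51777313, plus strand: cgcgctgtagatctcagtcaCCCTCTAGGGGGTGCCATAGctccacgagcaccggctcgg
Ikzf1, intron 3, chr11:11642906-11642965, minus strand: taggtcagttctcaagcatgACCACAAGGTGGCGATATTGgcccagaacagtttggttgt

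With the threshold set at 8.97 log2 odds, a level passed by 5% of windows 1000 bp away from the training sites, 25 of the 39 sites (64.1%, exact binomial 95% interval 47.2 to 78.8%) had a match within 100 bp of the centre. The share was 68.4% (67.4 to 69.4%) of the 8327 other sites on the same chromosomes, which lies within the interval of the 39. In windows 1000 bp away from the 39 sites, the share was 7.69%. By support, 6 of the 7 sites that 6 or more of the 8 replicates called had a match (85.7%, against 93% of the other sites with such support), as did 8 of the 9 sites with 3 to 5 replicates (88.9%, against 92.9%). A match was found at 4 of the 9 sites with 1 or 2 replicates (44.4%, interval 13.7 to 78.8%), below the 89.6% of other sites with that support, and at 7 of the 14 with none (50%, interval 23 to 77%, against 38.8%). The intervals cover counting error only.

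The motif has a direction, and it was read relative to the transcription of each gene. All 3 Foxo1 matches ran with the gene, whereas 6 of 7 matches at Bcl6 and 5 of 6 at Bach2 ran against it. Over all the genes, 9 matches ran with the gene and 16 against it. At Ebf1 the match upstream of the gene was on the plus strand and the match downstream was on the minus strand, so that the pair, 397 kb apart, pointed toward each other across the whole gene.

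Sites at these genes lay mostly in introns and flanks. By position, 22 sites were in introns, 7 in the upstream flank, 8 in the downstream flank, 2 within 1 kb of an annotated start (called promoter) and 0 in exons. The best supported sites were all in flanks: 5 of 7 upstream sites and 2 of 8 downstream sites had a peak in at least 6 of 8 replicates, compared with 0 of 22 in introns and 0 of 2 at promoters. Over all protein-coding genes, such support was found for 6.57% of upstream, 5.76% of downstream, 4.49% of intron and 5.85% of promoter pairs of a gene and a site. Here each pair counts 1 gene and 1 site, and 1 site can count for several genes.

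Among the 39 sites, 7 (17.9%) had a peak in at least 6 of 8 replicates, against 901 (4.75%) of all 18957 sites. A peak in all 3 pooled lists was found for 11 sites (28.2%), against 12.6% of all sites. At the other end, 14 sites (35.9%) had a peak in none of the 8 replicates, against 44.9% of all sites, and 13 sites (33.3%) were found in a single list, against 35.5% of all sites. The 44.9% is made up largely of sites with a peak in 48 h replicate 2 and no other replicate. Such sites were 4763 (25.1%) of all sites and 3 (7.69%) of the 39, and they stay in the total of every share here. Sites in a pooled list and in no replicate at all went the other way, with 28.2% of the 39 against 19.8% of all sites. The median over sites of the median percentile was 48.9, against 41.1 for all sites. These shares are descriptions and carry no test, since sites of 1 gene share their surroundings.

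**Figure D1:**
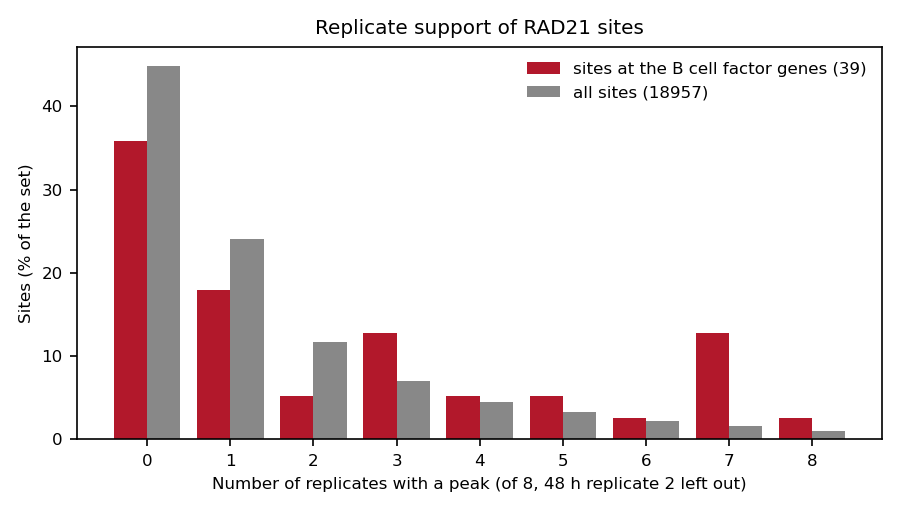
Percentage of RAD21 sites (y axis) by the number of replicates with a peak (x axis, of 8, with 48 h replicate 2 left out), for the 39 sites at the 10 genes (red) and all 18957 sites (grey). The red bars are higher at 7 replicates (12.8% against 1.55%) and lower at 0 replicates (35.9% against 44.9%). The bars at 0 include sites with a peak in 48 h replicate 2 and no other replicate (7.69% against 25.1%).

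The number of sites per gene was set beside that of other genes. The median was 3 for the 10 genes, 2 for 21 other transcription factor genes of B cells and 1 for 22367 protein-coding genes, of which 44.8% had no site. The 21 genes had 43 sites, 6 of them in at least 6 of 8 replicates, and Ets1, Irf4 and Klf2 among them had none. Per 100 kb of gene and flank, the medians were 2.4 for the 10 genes, 1.69 for the 21 and 0.817 for all. Bcl6 stood highest with 11 per 100 kb, and of 19588 genes with a window within 2 times its length, longer or shorter, 23 (0.117%) had at least its 7 sites. For Bach2, 3 of 1267 genes of like window (0.237%) had at least 10 sites. Sites of any list count here, and at least 1 of the 8 replicates called 5 of the 7 at Bcl6 and 7 of the 10 at Bach2. Ebf1 was at the other end, with 0.696 sites per 100 kb, and 36.8% of genes of like window had at least its 3 sites.

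**Figure D2:**
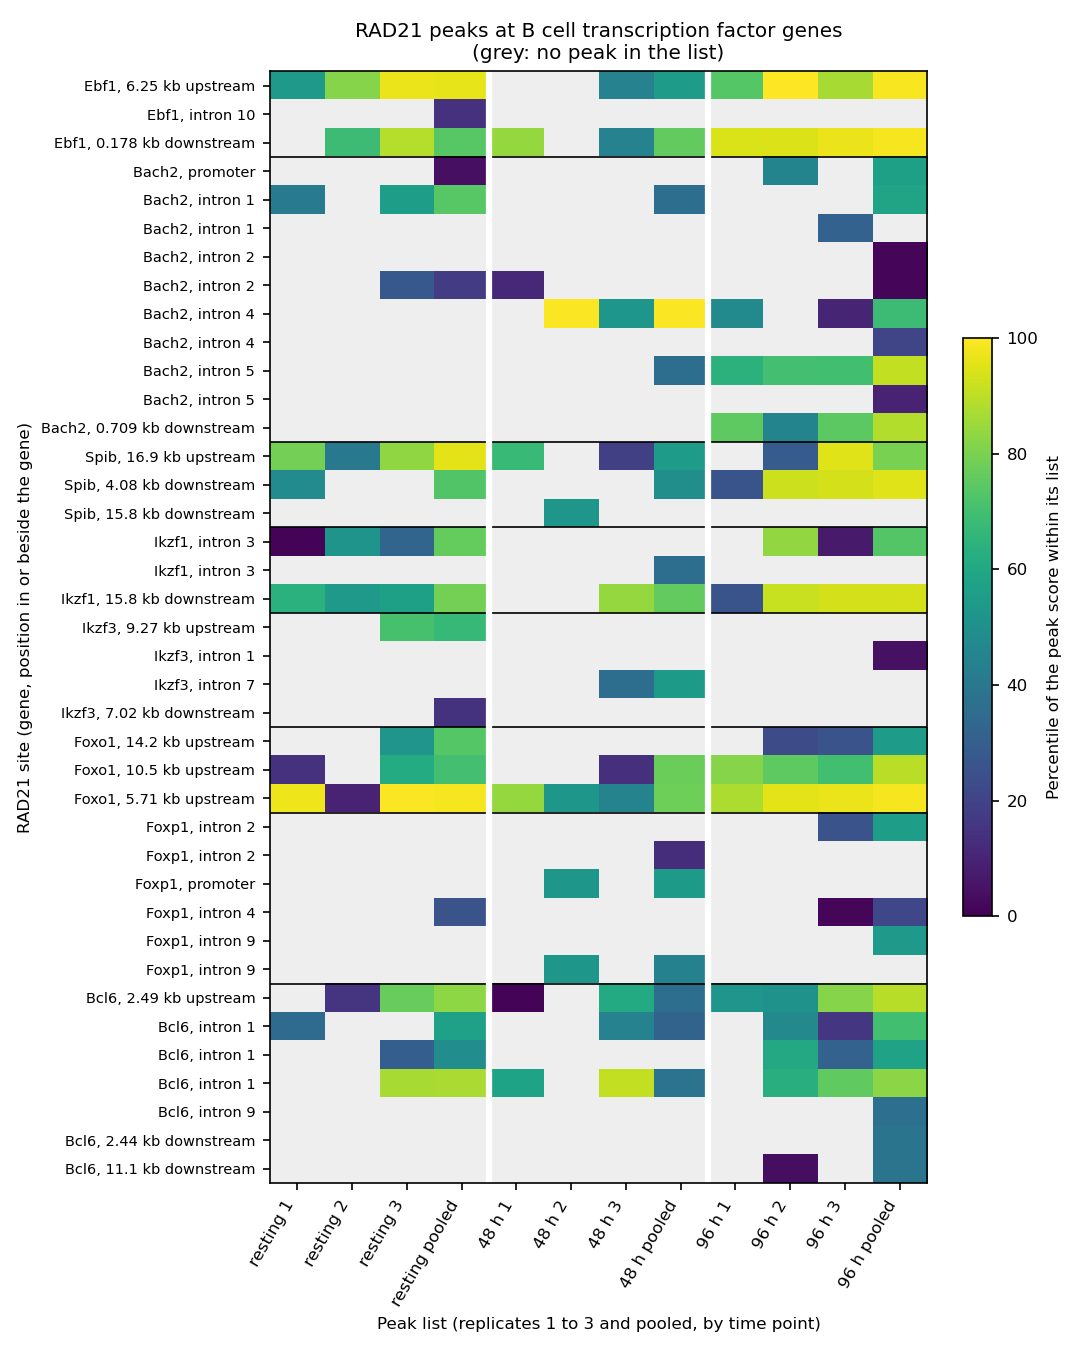
Percentile of the peak score (colour, 0 to 100) for each of the 39 sites (rows, by gene) in each of the 12 peak lists (columns, by time point), with grey where a list has no peak. Rows with colour across most columns are mostly flank sites of Ebf1, Spib, Ikzf1, Foxo1 and Bcl6, with some intron sites of Bcl6 and Ikzf1. The lower Bach2 rows are coloured mainly at 96 h, and 14 rows have a peak in none of the 8 replicates.

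Ebf1 encodes a factor that specifies the B lineage, and its gene lies on the plus strand at chr11:44430819-44821593. Its 2 main sites bracket the gene. The site upstream, 6.25 kb before the gene at chr11:44424419-44424726, had percentiles of 54.2, 81.7 and 97 in the resting replicates, 44.2 in 48 h replicate 3 with no peak in replicate 1, and 73.7, 99.9 and 87.1 at 96 h. It was therefore called in 7 of 8 replicates. The site downstream lies 0.178 kb past the end of the gene at chr11:44821605-44821936. It had no peak in resting replicate 1 and percentiles of 68.5 and 88.9 in the other resting replicates, 84.1 and 44.2 at 48 h, and 94.3, 94.7 and 97.2 at 96 h. Its presence in 7 of 8 replicates leaves no room for a test between time points, since with 1 replicate lacking the peak the exact permutation p is 0.25 or 1. A further site in intron 10 was found in the resting pooled list alone, at percentile 14.4. No site was found at a transcription start of Ebf1.

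Foxo1 encodes a forkhead factor of early B cell development whose activity is lowered by PI3K signalling. Its gene occupies chr3:52072259-52154031 on the plus strand, and its 3 sites lay upstream within 8.51 kb of each other, with none inside the gene. The site 5.71 kb upstream, chr3:52066379-52066711, was the only 1 of the 39 with a peak in all 8 replicates, and it had a peak in 48 h replicate 2 as well (percentile 53.1). Its percentiles were 97.4, 9.74 and 99.6 in resting B cells, 84.1 and 44.8 at 48 h and 87.5, 96 and 96.9 at 96 h. Resting replicate 2 was far below the other resting replicates, and the time points overlapped. Among the 187 sites with a peak in all 8 replicates, its mean score rank (0 to 100) was 60.8 ± 46.4 (SD, n = 3) in resting B cells, 40.6 ± 22.7 (n = 2) at 48 h and 61.7 ± 7.72 (n = 3) at 96 h. An exact permutation test of the rank over the 560 arrangements of the replicates gave p = 0.775, and 0.917 after Benjamini-Hochberg adjustment over the 187 sites. Of these sites, 18 (9.63%) had an unadjusted p of at most 0.05, and 0 passed the adjustment. Without resting replicate 2, the p for Foxo1 was 0.0381, so that this value rested on 1 library.

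The second Foxo1 site, 10.5 kb upstream at chr3:52061576-52061963, had a peak in 6 of 8 replicates. Its percentiles were 14.3 and 61.5 in resting replicates 1 and 3, 13.6 in 48 h replicate 3, and 82, 75.1 and 69.8 at 96 h, with no peak in resting replicate 2 or 48 h replicate 1. Presence of a peak did not pass the test over the time points (exact permutation p = 0.679). The site 14.2 kb upstream was weaker and was called in resting replicate 3 (52.2) and 96 h replicates 2 and 3 (22.8 and 25.7). A further site without a peak in any of the 8 replicates lay 4.5 kb beyond the edge of the 20 kb window, and the one after that, 5.68 kb beyond the edge, had a peak in 3.

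Ikzf1 encodes Ikaros, a zinc finger protein of lymphocyte development, and lies on the plus strand at chr11:11585006-11672929. Its best supported site was 15.8 kb downstream, in or within 1 kb of a start of the neighbouring gene Fignl1, at chr11:11688448-11689079. There the percentiles were 63.7, 54.1 and 57 in resting B cells, 84 in 48 h replicate 3, and 25.9, 91.5 and 93.7 at 96 h, with no peak in 48 h replicate 1. A site in intron 3, chr11:11642796-11643108, was called in all 3 resting replicates (0.954, 51.9 and 32.6) and in 96 h replicates 2 and 3 (83.8 and 7.33), but in no 48 h list, pooled or not. Its presence over the 3 time points did not pass the test (exact permutation p = 0.143, adjusted p = 0.904). A second site in intron 3 was found in the 48 h pooled list alone (percentile 36).

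Ikzf3 encodes Aiolos, a relative of Ikaros with a role in mature B cells, and lies on the minus strand at chr11:98326216-98407345. Its 4 sites had little support, each in 0 or 1 of the 8 replicates. The strongest, 9.27 kb upstream of the gene at chr11:98416497-98416740, lies in or within 1 kb of a start of Zpbp2. It was found in resting replicate 3 (percentile 70.8) and the resting pooled list (66.9). The site in intron 7 was found in 48 h replicate 3 (36.3) and the 48 h pooled list, and those in intron 1 and 7.02 kb downstream only in a pooled list (4.39 at 96 h and 14.8 in resting B cells). No Ikzf3 site was called in any list of more than 1 time point.

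Foxp1 encodes a forkhead factor required in early B cell development. Its gene is long (341 kb, minus strand, chr6:98875332-99216526), and its 6 sites had little support. None was called in more than 1 of the 8 replicates, and 2 were called in 1 of them (96 h replicate 3, percentiles 25.7 and 1.34). Of the other 4, 2 were found in 48 h replicate 2 (both at percentile 53.1) and the 48 h pooled list, and 2 in 1 pooled list each. The site at an internal start of the gene, chr6:99113077-99113149, was 1 of these 4, with no peak in a resting or 96 h list. This 73 bp site contained 38 bases of an AG repeat and no motif match, and another site of 73 bp in intron 2 contained 45 bases of a TC repeat. Resting replicates had no peak at Foxp1, and neither did 48 h replicates 1 and 3.

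**Figure D3:**
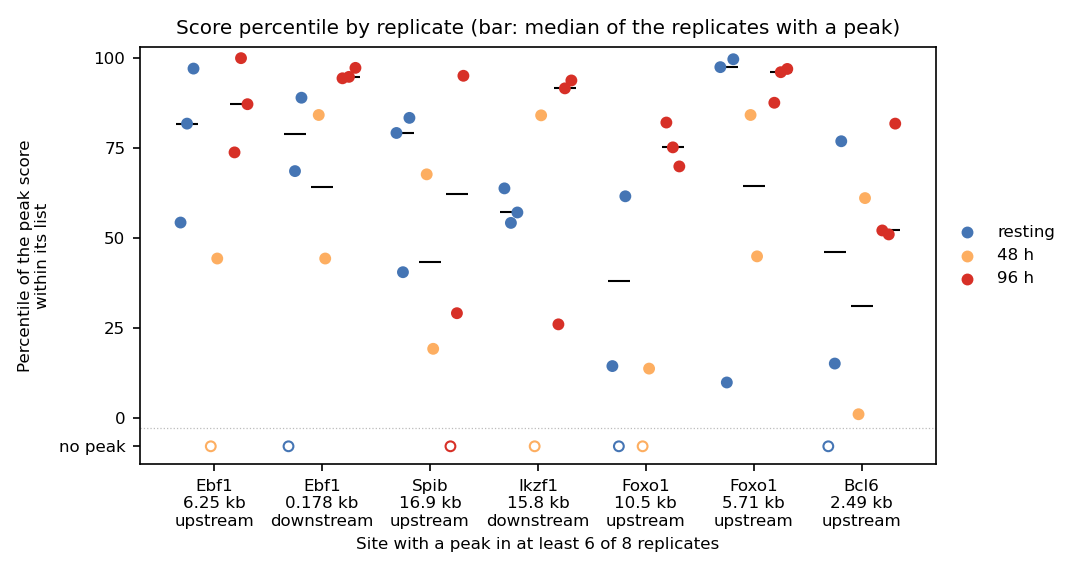
Percentile of the peak score within its list (y axis) at the 7 sites called in 6 or more of 8 replicates (x axis), for resting (blue), 48 h (orange, replicates 1 and 3) and 96 h (red) replicates, each point 1 replicate of 12 pooled mice; open points at the bottom mark replicates without a peak and bars the median of those with one. The points spread widely within a time point at most sites (9.74 to 99.6 in resting B cells at Foxo1, 5.71 kb upstream), and percentiles are not on a common scale between lists of different length.

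Spib encodes an Ets family factor closely related to PU.1. Its short gene, chr7:51781365-51787441 on the minus strand, contained no site, and all 3 were in the flanks. The site 16.9 kb upstream lies in or within 1 kb of a start of Pold1, at chr7:51804218-51804546. Its percentiles were 79.1, 40.4 and 83.3 in resting B cells, 67.6 and 19.1 at 48 h, and 29 and 95 in 96 h replicates 2 and 3, with no peak in 96 h replicate 1. It was called in 7 of 8 replicates, and the time points overlapped. The site 4.08 kb downstream, chr7:51777113-51777465, lies in or within 1 kb of a start of Mybpc2. It was called in resting replicate 1 (48.2), in no 48 h replicate and in all 3 replicates at 96 h (25.9, 92.4 and 93.7). It had a peak in the 48 h pooled list, at percentile 49.3, so that its absence at 48 h held for the replicates but not for their merged reads. The remaining site was found in 48 h replicate 2 alone.

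Irf8 and Pou2af1, which encode an interferon regulatory factor and the Oct coactivator OBF-1, had no site in the gene or within 20 kb. Of genes with windows of like length, 48.1% and 47.6% had none either. The sites nearest to Irf8 (chr8:123260258-123280594) lay 38.2 kb upstream, with a peak in 1 of 8 replicates, and 39.7 kb downstream at chr8:123320159-123320520, with a peak in all 8 and a median percentile of 97. For Pou2af1 (chr9:51021795-51048184) they lay 51.8 kb upstream, in 6 of 8 replicates, and 52.8 kb downstream, in 4 of 8. All 4 had a motif match. Both genes were thus free of called sites over a stretch with well supported sites on at least 1 side.

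Bach2 encodes a repressor that favours class switching over plasma cell differentiation. Its gene is 347 kb long (plus strand, chr4:32325779-32673083) and had 8 intron sites, 1 site at its start and 1 in the downstream flank. Of the 10 sites, 9 were in the 96 h pooled list, 3 in the resting and 3 in the 48 h pooled list. Over all sites, 67.5% were in the 96 h, 30% in the resting and 29.2% in the 48 h pooled list. None of the Bach2 sites had a peak in 6 or more of the 8 replicates.

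Among the sites at these genes, the 2 with the clearest difference between time points were at the 3′ end of Bach2. Their pattern, a peak in all 96 h and no resting replicates, was shown by 5.85% of all 10270 sites. The site in intron 5, chr4:32659128-32659425, had percentiles of 64.4, 70.2 and 69.8 in the 96 h replicates and 90.8 in the 96 h pooled list. It was in no resting list and no 48 h replicate, but was in the 48 h pooled list at percentile 36. The site 0.709 kb past the end of the gene, chr4:32673637-32673947, had percentiles of 75.2, 45.1 and 74.7 in the 96 h replicates and 88.4 in the pooled list, and was in no list of another time point. The 2 sites are 14.5 kb apart, and the motif match of the first was on the minus strand and that of the second on the plus strand, pointing away from each other. Another site between them, 2.5 kb from the first, was found in the 96 h pooled list alone (percentile 9.59) and also had a match on the minus strand.

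Both sites had a peak in 3 of 3 replicates at 96 h and in 0 of 5 at the other time points, and the exact permutation test over the time points gave p = 0.0357 for each, the smallest value it can give for presence of a peak. After Benjamini-Hochberg adjustment over the 10447 sites that 1 or more of the 8 replicates called, the adjusted p was 0.726. The lists at 96 h were mostly the longest, and whether list length accounts for the pattern was not tested. Both sites were in 96 h replicate 1 (2807 peaks) and neither was in resting replicate 3 (3578 peaks). When each replicate was limited to the 821 highest-scoring peaks, neither site kept the difference. This setting cannot decide whether list length matters. At percentiles of 69.8 and 74.7 among the 8579 peaks of 96 h replicate 3, both sites fall outside the top 821, whatever the other lists hold. Whether plasma cells among the 96 h cells account for the pattern was not tested.

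Closer to the start of Bach2, support was thinner. The promoter site, chr4:32326782-32327002 and 0.967 kb past an annotated start, was found in 96 h replicate 2 (45.3), the 96 h pooled list (56.8) and the resting pooled list (4.25), and had no motif match. A site in intron 1 was called in resting replicates 1 and 3 (41.3 and 55.8) and in all 3 pooled lists, but in no stimulated replicate. The presence of a peak there did not pass the test (exact permutation p = 0.25).

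One further intron site of Bach2 is shown for its sequence. In intron 4, at chr4:32605857-32606114, the percentile was 99.6 in 48 h replicate 2, 52.6 in 48 h replicate 3 and 99.4 in the 48 h pooled list, then 47.3 and 10.3 in 96 h replicates 1 and 3. No resting list had the peak. The site had no motif match and contained a tandem repeat of 66 bases with the unit CTGG, in capitals below with 10 bases on either side. Of the 39 sites, 5 (12.8%) contained a tandem repeat of at least 20 bases, against 15.8% of the other sites on the same chromosomes and 49% of those found in 48 h replicate 2 and no other replicate.
Bach2, intron 4, chr4:32605974-32606059, plus strand: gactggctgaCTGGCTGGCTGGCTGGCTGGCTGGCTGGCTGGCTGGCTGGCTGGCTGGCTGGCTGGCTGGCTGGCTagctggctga

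Bcl6 encodes the repressor that is needed for germinal centre B cells. Its gene is short (23.8 kb, minus strand, chr16:23965138-23988938), and its 7 sites spread over 37.4 kb from 2.49 kb upstream to 11.1 kb downstream. All 7 were in the 96 h pooled list and had a motif match, 4 were in the resting and 3 in the 48 h pooled list. The 6 matches from the upstream flank to 2.44 kb downstream were on the plus strand, against transcription, and that of the last site was on the minus strand. The site 2.49 kb upstream, chr16:23991287-23991575, was called in 7 of 8 replicates. Its percentiles were 15 and 76.8 in resting replicates 2 and 3, 0.91 and 61 at 48 h, and 52, 50.9 and 81.7 at 96 h, and the time points overlapped.

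Intron 1 of Bcl6 held 3 sites, between 3.31 and 6.33 kb from the start. The highest was the last, chr16:23982387-23982835, with percentiles of 86.8 in resting replicate 3, 57.9 and 90.7 at 48 h, and 62.9 and 75.4 in 96 h replicates 2 and 3. It was called in 5 of 8 replicates, and the other intron 1 sites in 4 and 3. The sites in intron 9 and 2.44 kb downstream were in the 96 h pooled list alone (36.6 and 38.6). The last site, 11.1 kb downstream, was in 96 h replicate 2 (3.82) and the 96 h pooled list (38.6).

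**Figure D4:**
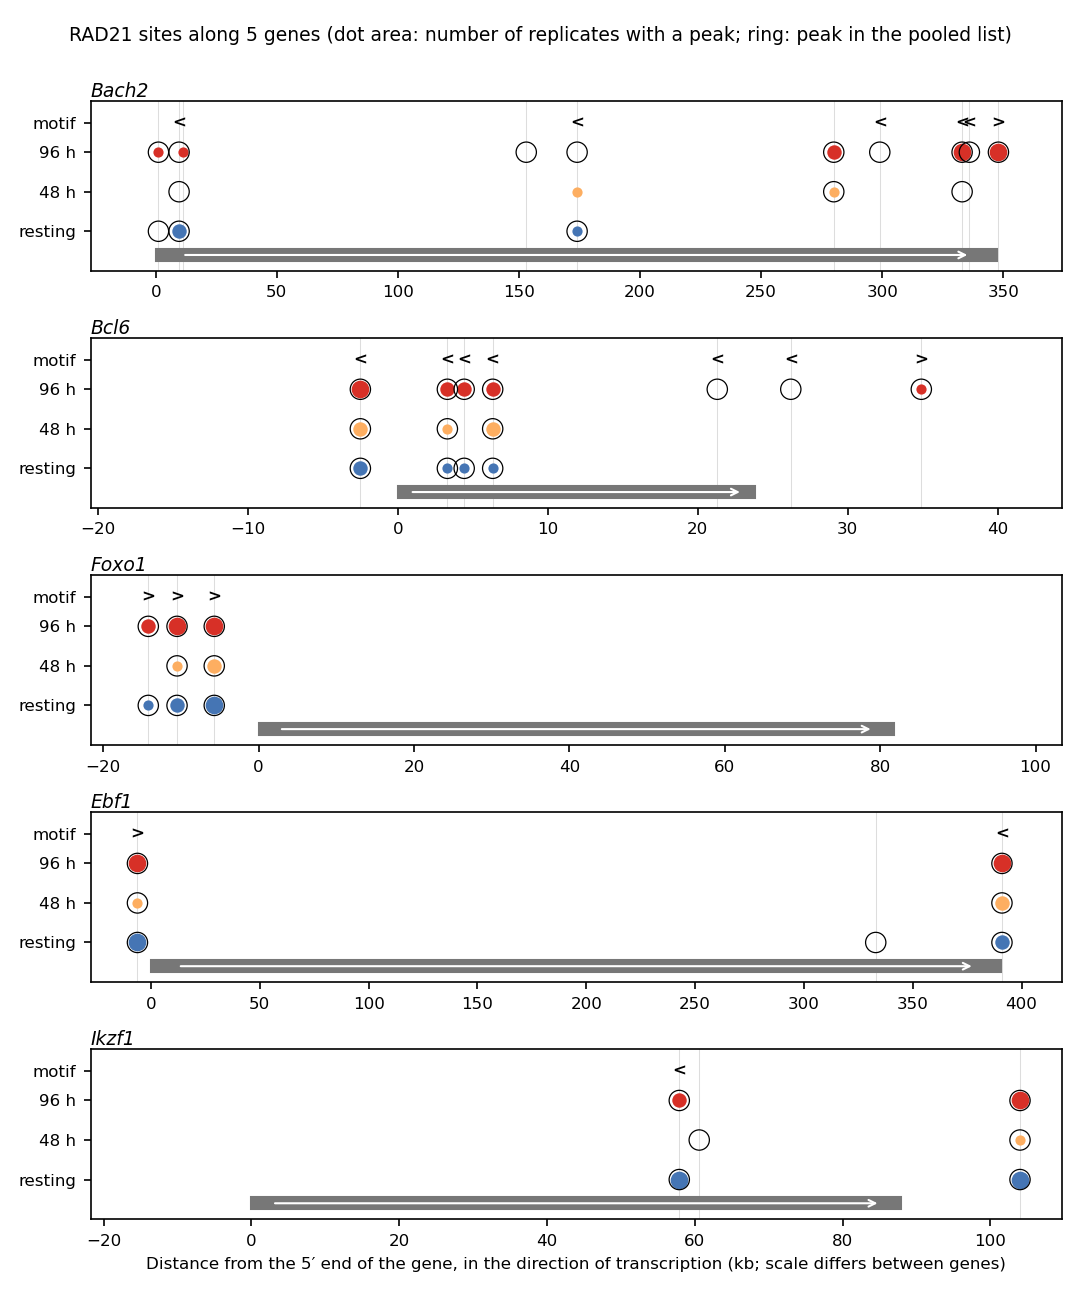
RAD21 sites along Bach2, Bcl6, Foxo1, Ebf1 and Ikzf1 by distance from the 5′ end of the gene in kb (x axis, grey bar and arrow for the gene and its direction), with a row for each time point; the area of a dot gives the number of replicates with a peak (48 h replicate 2 left out), a ring a peak in the pooled list, and > or < a motif match within 100 bp that runs with or against the gene. Filled dots at the 3′ end of Bach2 are in the 96 h row only, Foxo1 has its 3 sites upstream of the gene, and the Ebf1 motif matches face each other across the gene.

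The question whether cohesin sites at these genes were gained or lost on stimulation was addressed by counting sites with a peak in every replicate of one time point and in none of another. Of 24 sites called in a resting or a 96 h replicate, 2 were in all 96 h replicates and no resting replicate, both at Bach2 (8.33%), where 5.85% of all 10270 sites showed this pattern. The reverse pattern was found at 0 of the 24 sites and at 0.0876% of all sites. Of 18 sites called in a resting replicate or in 48 h replicates 1 and 3, 1 was in all resting and no 48 h replicates, in Ikzf1 intron 3 (5.56%, against 2.57% of 5012 sites), and 0 showed the reverse, against 1.48%. Of 23 sites called at 96 h or 48 h, 3 were in all 96 h and no 48 h replicates (13%, against 8.67% of 9723 sites), namely both Bach2 sites and Spib, 4.08 kb downstream, and 0 showed the reverse, against 0.0617%. Each of these counts is of at most 3 sites, and 1 or 2 sites more or fewer would move its share to the other side of the share over all sites. Fisher's exact test at a single site cannot go below p = 0.1 with these replicates.

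Over the 3 time points together, 2 of 25 sites (8%) had an exact permutation p of at most 0.05 for presence of a peak, against 514 of 10447 sites (4.92%), and 0 of the 10447 passed after Benjamini-Hochberg adjustment. In the 21 other factor genes, 1 of 25 sites had such a p. There, 0 of 25 sites were in all 96 h and no resting replicates, 3 of 18 in all resting and no 48 h replicates, and 4 of 23 in all 96 h and no 48 h replicates, with 0 in each reverse direction. The counts for the 10 genes changed when single libraries were left out. The rule of all replicates against none is looser with a replicate left out, which by itself can only keep or raise a count. Shares over all sites are not given for these settings, so the changes cannot be called particular to the 10 genes. Without 48 h replicate 3, 6 sites were in all 96 h and no 48 h replicates and 3 in all resting and no 48 h replicates, without 96 h replicate 1 the former count was also 6, and without resting replicate 2 the latter was 2. With 48 h replicate 2 included, the counts were 2, 1 and 3, as without it.

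The number of sites at the 10 genes was highest in the longest replicate list. It was 9, 7 and 14 in the resting replicates, 6 and 11 in 48 h replicates 1 and 3, 10, 17 and 19 at 96 h, and 5 in 48 h replicate 2. The means were 10 ± 3.61 (SD, n = 3), 8.5 ± 3.54 (n = 2) and 15.3 ± 4.73 (n = 3), and the ranges overlapped. As a share of all sites of a replicate, the means were 0.559 ± 0.257% for resting B cells, 0.548 ± 0.222% at 48 h and 0.317 ± 0.0834% at 96 h, where the mean number was highest. In 48 h replicate 2 the share was 0.0955% (exact binomial 95% interval 0.031 to 0.223%), below that of the other replicates, which ranged from 0.222 to 0.855%.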

How the data were processed

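RAD21 ChIP-seq was done on resting, 48 h-stimulated and 96 h-stimulated splenic B cells, with 3 replicates each and 9 input libraries, which entered through the authors' peak calling and were not used here on their own. According to the methods, the authors aligned reads to mm9 with Bowtie 2, reduced all sets at random to the same number of distinct positions, ran MACS 2 with input as control at a false discovery rate of 0.05, and merged replicates for the pooled lists. The 12 deposited lists give a score per peak, the score of the authors' caller. Its statistic is not named in the sources used here, so it served only to rank peaks within a list. Read depth per peak is unknown. Equal drawing fixes the positions but not the yield of peaks.

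Peaks of different lists that shared at least 1 bp were merged into 1 site, assigned by its centre to protein-coding genes of GENCODE M1 on the same assembly, in the order promoter, exon, intron, flank. The genes and lists were chosen with earlier results of these data known. All 10 genes are described. Sites are given with position when called in at least 6 of 8 replicates, when in all replicates of one time point and none of another, at promoters, or highest of their gene in median percentile. The Bach2 site in intron 4 was chosen for display after its values were seen. The 21 other factor genes were matched by symbol, 1 of them through an older symbol in a RefSeq table.

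Presence of a peak and score rank at the time points were compared through the F statistic, which has no direction, in an exact permutation test over 560 arrangements of 8 replicates, with Benjamini-Hochberg adjustment over all sites tested. The motif was grown from the word AGAGGGCG and matched 439 of its 479 training sites (91.6%). Python 3.11.15, numpy 2.4.6, scipy 1.17.1 and matplotlib 3.10.9 were used, and the steps were tested on simulated data. Alternatives were other overlaps and windows, a stricter score, lists of equal length, inclusion of 48 h replicate 2, arrangements within a replicate number, and omission of each replicate in turn.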

Additional observations from a re-analysis of the deposited data

Results flagged for a closer look

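The lists outside the replicate comparisons also held sites at these genes. In 48 h replicate 2, which was left out of the counts of support, 5 sites had a peak, at Bach2 intron 4, Spib 15.8 kb downstream, Foxo1 5.71 kb upstream and Foxp1 (2 sites). Of these 5, 1 had a motif match and 2 contained a tandem repeat, and 3 had no peak in another replicate.

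A peak in a pooled list and in no replicate at all was found for 11 of the 39 sites (28.2%), against 19.8% of all sites. They include the sites in Bcl6 intron 9 and 2.44 kb downstream of Bcl6, both with a motif match, and the third site near the 3′ end of Bach2.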

How the results depend on the processing

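With a score minimum at the median (10.7 for replicates, 13.7 for pooled lists), 21 of 39 sites were left and 0 were in all 8 replicates. With every replicate limited to 821 peaks, 0 sites were in all 96 h and no resting replicates, 0 in all resting and no 48 h, 0 in all 96 h and no 48 h, 1 in all 48 h and no 96 h, 0 had an exact p of at most 0.05 and 0 were in all 8 replicates. A window of 50 kb gave 3 sites in all 8 replicates instead of 1. Leaving out single replicates gave 0 to 1 sites in all resting and no 96 h replicates, 1 to 3 in all resting and no 48 h, 0 to 2 in all 48 h and no resting, 3 to 6 in all 96 h and no 48 h, 0 to 1 in all 48 h and no 96 h, 0 to 3 with an exact p of at most 0.05, and 1 to 3 in all remaining replicates. The last count was 3 without resting replicate 1 or 48 h replicate 1 and 2 without 96 h replicate 1. Apart from the exact p, these counts rest on rules that become looser with a replicate left out. No shares over all sites stand beside them. The count with an exact p of at most 0.05 was 3 without resting replicate 1 and 0 without either 48 h replicate or any 96 h replicate, where fewer arrangements let a site seen only at 96 h reach no less than p = 0.0571 or 0.0952. The p of the Foxo1 site ranged from 0.0381 (without resting replicate 2) to 0.986. The share with a motif match stayed between 56.4 and 76.2% under the alternatives tried.

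Permutation within replicate numbers (replicate block) left 0 sites with an exact p of at most 0.05, since such a site can then reach no less than 0.111, and gave p = 0.75 at Foxo1. Deviations of same-numbered replicates correlated between -0.134 and 0.00812, and those of differently numbered replicates between -0.0755 and 0.163. The sample titles give only a replicate number. These correlations cannot decide whether same-numbered replicates were prepared together.

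Pooled and replicate lists share reads, lists differ in length, and the smallest p at single sites is limited by 8 replicates.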
